A study of Mus musculus with 6 samples.

Results

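The 10 genes described here encode enzymes of fatty acid synthesis, elongation and desaturation (Acly, Acaca, Acacb, Fasn, Elovl5, Elovl6, Scd1 and Scd2). They also encode an enzyme that supplies reducing power (Me1) and the sugar-responsive transcription factor of the pathway (Mlxipl). They were taken by gene name from the count files, and all 10 were found among the 23284 genes listed there. Messenger RNA of mouse intestine was read in 6 libraries, of which 3 came from wild type (WT) and 3 from SHP-KO mice, which lack the small heterodimer partner (gene Nr0b2), a nuclear receptor without a known ligand that represses other transcription factors. All mice were males 8 weeks of age that were fasted overnight and then refed for 6 h, and the tissue is labelled as jejunum and ileum together. The sources used here give neither the strain, nor how the gene was deleted, nor whether a library stands for 1 mouse, so the p-values reflect how far these libraries scatter, and that scatter may be technical only.

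In de novo lipogenesis, citrate that leaves the mitochondrion is cleaved to acetyl-CoA, acetyl-CoA carboxylase turns this into malonyl-CoA, and fatty acid synthase builds palmitate from both with NADPH. Elongases and stearoyl-CoA desaturases then turn palmitate into longer and monounsaturated fatty acids. Most of these genes are textbook targets of SREBP-1c, which acts downstream of insulin, and of ChREBP, the product of Mlxipl, which responds to sugar metabolites and binds DNA together with Mlx. In the small intestine ChREBP is known for its role in the handling of dietary fructose.

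The total count was between 7956528 and 13511800 per library, lower in each SHP-KO library than in each WT library. The deleted gene, Nr0b2, had 31, 14 and 23 counts in the WT libraries and 1, 0 and 0 in SHP-KO. Counts were expressed relative to library size as CPM, scaled with the TMM method, and tested with edgeR's quasi-likelihood test, and a gene was called where its Benjamini-Hochberg adjusted p over all 12106 tested genes was under 0.05. By that rule 70.6% of all tested genes were called, 35.2% higher and 35.4% lower in SHP-KO. Genes called and changed by at least 2-fold made up 20.0%. With the libraries scaled to 13 epithelial genes instead, 66.2% of the calls were higher, against 49.9% with TMM, because that scaling raised the median log2 fold change by 0.19.

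The lipogenic genes did not move as a block. Acly and Mlxipl were 3.16-fold and 2.53-fold higher in SHP-KO, and Me1 rose by a smaller amount, whereas Acaca, Fasn, Elovl5, Scd1 and Scd2 were between 2.44-fold and 11.3-fold lower and Elovl6 was 1.19-fold lower. Of the 10 genes, 3 were called higher, 6 lower and 1, Acacb, did not pass, beside the 35.2% and 35.4% of all tested genes. The change was at least 2-fold in 7 of the 10, against 20.0% of all tested genes, and the median log2 fold change was -0.94, against -0.012 over all tested genes. The groups' CPM did not overlap for 9 of the 10, and for 72.0% of all tested genes. Fewer cells of a type and less RNA per cell cannot be told apart in these tissue samples.

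**Figure D1:**
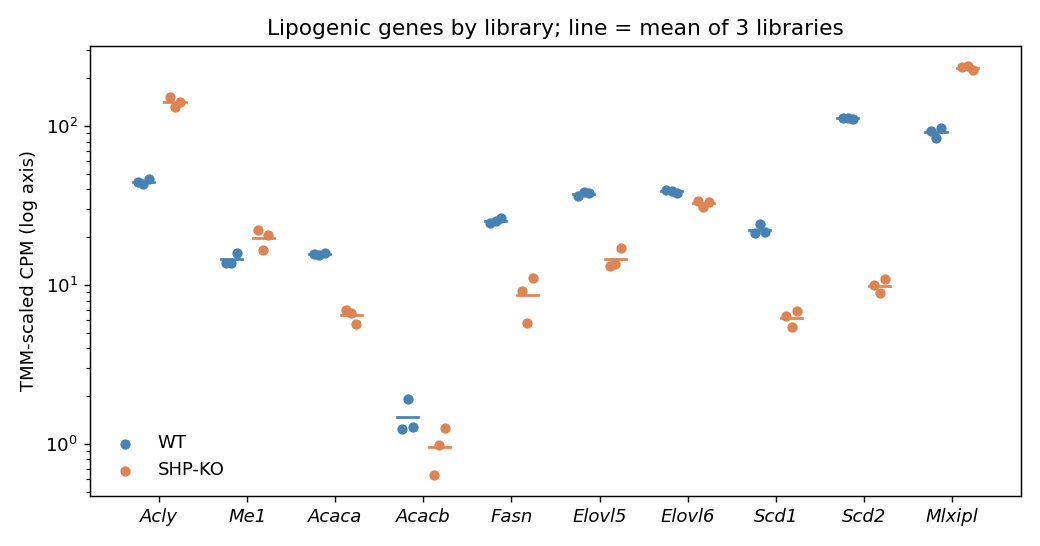
TMM-scaled CPM (log axis) of the 10 genes in each of the 6 libraries, WT in blue and SHP-KO in orange, with a line at the mean of 3 libraries. Acly and Mlxipl lie higher in all SHP-KO libraries, Scd2 falls from a mean of 112 to 9.93 CPM, and the groups overlap for Acacb.

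Promoter windows, from 250 bases before to 50 bases after an annotated start, are shown for the called members of largest fold change in each direction that have an entry in the RefSeq table (GRCm38.p6). Of the 10 genes, 8 had an entry there, with 10 windows in all, and Scd1 and Scd2 had no entry. Of the genes that rose, the windows are those of Acly (chr11:100527951-100528250, minus strand) and the pair of starts of Mlxipl (chr5:135089640-135089939, plus strand, and chr5:135106641-135106940, plus strand). Of those that fell, they are Fasn (chr11:120824498-120824797, minus strand) and Elovl5 (chr9:77917115-77917414, plus strand). Capitals mark matches, on either strand, to CACGTG (the E-box core that ChREBP and USF proteins read), CCAAT (read by NF-Y), GGGCGG (a GC box), the sterol regulatory element of SREBP proteins or CAAGGTCA (the site of LRH-1, a nuclear receptor that SHP represses).
Acly: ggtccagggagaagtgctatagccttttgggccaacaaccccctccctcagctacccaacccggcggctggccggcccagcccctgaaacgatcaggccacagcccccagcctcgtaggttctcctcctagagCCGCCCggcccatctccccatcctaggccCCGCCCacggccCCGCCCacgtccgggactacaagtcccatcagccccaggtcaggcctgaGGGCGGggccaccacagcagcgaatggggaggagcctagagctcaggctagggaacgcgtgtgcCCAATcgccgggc
Mlxipl, first start: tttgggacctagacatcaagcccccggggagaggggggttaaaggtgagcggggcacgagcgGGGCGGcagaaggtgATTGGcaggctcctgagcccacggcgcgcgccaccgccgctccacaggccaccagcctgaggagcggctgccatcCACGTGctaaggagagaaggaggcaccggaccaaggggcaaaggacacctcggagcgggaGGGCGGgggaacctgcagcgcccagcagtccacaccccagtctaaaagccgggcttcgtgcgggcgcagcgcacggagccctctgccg
Mlxipl, second start: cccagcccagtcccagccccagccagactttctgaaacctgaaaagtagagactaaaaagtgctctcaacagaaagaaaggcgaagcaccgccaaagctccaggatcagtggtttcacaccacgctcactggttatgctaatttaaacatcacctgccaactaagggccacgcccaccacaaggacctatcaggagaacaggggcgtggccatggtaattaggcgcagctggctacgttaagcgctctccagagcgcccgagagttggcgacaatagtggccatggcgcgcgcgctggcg
Fasn: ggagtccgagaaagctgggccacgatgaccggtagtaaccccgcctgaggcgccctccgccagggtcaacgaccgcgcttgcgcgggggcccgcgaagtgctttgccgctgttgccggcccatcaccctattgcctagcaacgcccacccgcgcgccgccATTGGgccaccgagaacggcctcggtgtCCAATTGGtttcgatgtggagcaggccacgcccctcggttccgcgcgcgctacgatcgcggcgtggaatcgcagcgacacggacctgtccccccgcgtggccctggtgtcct
Elovl5: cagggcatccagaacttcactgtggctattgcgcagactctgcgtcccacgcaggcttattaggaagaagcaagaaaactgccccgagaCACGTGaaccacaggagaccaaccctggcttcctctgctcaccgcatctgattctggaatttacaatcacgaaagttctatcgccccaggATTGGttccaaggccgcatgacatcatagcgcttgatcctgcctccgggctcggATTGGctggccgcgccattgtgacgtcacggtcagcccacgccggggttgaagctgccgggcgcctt
CACGTG occurred in 2 of the 10 windows, at position -98 from the first start of Mlxipl and at position -161 of Elovl5, and in 7.15% of the 32851 windows of the table. CCAAT was found in 6 of 10 windows (37.4% of all), with a pair of overlapping matches at positions -62 and -59 of Fasn. GGGCGG was found in 3 of 10 windows (35.7% of all), those of Acly, Me1 and Mlxipl. The sterol regulatory element and CAAGGTCA occurred in 0 of the 10, and in 0.234% and 1.56% of all windows. The sterol regulatory element was searched in a fixed form only, so other forms of it could have been missed. Genes that rose and genes that fell thus both carried CCAAT letters in these windows, and CACGTG was in Mlxipl, which rose, and Elovl5, which fell. GGGCGG was found only in genes that rose, with Scd1 and Scd2 not covered, and a link to direction was not tested. The window of the second start of Mlxipl held no match, and a match describes the letters alone.

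Acly, which encodes ATP citrate lyase and opens the pathway by cleaving cytosolic citrate, was higher in every SHP-KO library. It lies on chromosome 11 from 100337666 to 100389314 (mm9, minus strand) with 29 exon intervals. Its level was 44.8, 43.1 and 46.3 CPM in WT replicates 1 to 3 and 152, 132 and 141 CPM in SHP-KO replicates 1 to 3. The lowest SHP-KO library thus stood well above the highest WT library, and the log2 fold change was 1.66 (SE 0.050, adjusted p 2.1e-48, edgeR).

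Me1, the cytosolic malic enzyme that makes NADPH while turning malate into pyruvate, was slightly higher (chromosome 9, 86474970 to 86589947, minus strand, 15 exon intervals). WT replicates held 13.7, 13.9 and 15.9 CPM while SHP-KO held 22.3, 16.5 and 20.6 CPM. SHP-KO replicate 2 was close to WT replicate 3, and the groups did not overlap. The log2 fold change was 0.44 (SE 0.10, adjusted p 7.8e-05, edgeR), and the call was lost where a coefficient of variation (CV) of 0.2 between libraries was assumed in place of the estimated spread (adjusted p 0.17, edgeR exact test). In the authors' deposited table Me1 has a log2 fold change of 0.43 with an adjusted p of 0.19. Of the 100-base stretches of the longest coding Me1 transcript, 17.2% also occur in transcripts of other loci, among them the processed pseudogenes Gm7049 and Gm7329, and reads that align to several places were not counted.

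The genes for both acetyl-CoA carboxylases were low, and the cytosolic enzyme's gene, Acaca, fell. Acaca spans 84008940 to 84215153 on chromosome 11 (plus strand, 54 exon intervals) and makes the malonyl-CoA used for synthesis. It was at 15.8, 15.5 and 15.9 CPM in WT and at 7.0, 6.67 and 5.73 CPM in SHP-KO, so every SHP-KO library was below every WT library. The log2 fold change was -1.29 (SE 0.13, adjusted p 1.2e-15, edgeR). In the reference transcripts 42.8% of the 100-base stretches of Acaca also occur in Gm5182, a processed pseudogene, so its counts come from the remaining stretches and its level may be underestimated in both genotypes. Acacb, whose product sits on the outer mitochondrial membrane and restrains fatty acid oxidation through malonyl-CoA, lies on chromosome 5 from 114615527 to 114700767 (plus strand, 52 exon intervals). It had 17, 22 and 17 counts in WT and 5, 9 and 11 in SHP-KO. These counts overlap once scaled (1.24 to 1.93 and 0.64 to 1.26 CPM), the log2 fold change was -0.59 (SE 0.36, adjusted p 0.14, edgeR), and the gene did not pass.

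Fasn, the multifunctional synthase that assembles palmitate, fell, with the widest relative scatter of the called members in SHP-KO. The gene lies on chromosome 11 from 120667272 to 120685861 (minus strand, 43 exon intervals). WT replicates 1 to 3 were at 24.5, 25.3 and 26.4 CPM, and SHP-KO replicates at 9.16, 5.80 and 11.1 CPM, from 72, 53 and 97 counts. All SHP-KO libraries were lower than all WT libraries, with replicate 2 lowest. The log2 fold change was -1.56 (SE 0.11, adjusted p 3.7e-20, edgeR), -1.32 without SHP-KO replicate 2 and -1.79 without SHP-KO replicate 3.

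The elongases differed from each other. Elovl5, which extends polyunsaturated fatty acids, spans 77765172 to 77832326 on chromosome 9 (plus strand, 8 exon intervals) and went from 36.2, 38.4 and 37.8 CPM in WT to 13.1, 13.7 and 17.1 CPM in SHP-KO. On the log2 scale it fell by 1.35 (SE 0.085, adjusted p 6.9e-26, edgeR), with no overlap. Elovl6, which turns palmitate into stearate, lies on chromosome 3 from 129235304 to 129341411 (plus strand, 5 exon intervals). It was at 39.7, 38.9 and 38.0 CPM in WT and at 34.0, 31.1 and 33.1 CPM in SHP-KO. The groups did not overlap but were near each other, at log2 -0.25 (SE 0.070, adjusted p 0.00099, edgeR). This call did not hold with epithelial scaling (log2 -0.060, adjusted p 0.46) or when the CV was assumed (adjusted p 0.48 by the exact test in edgeR), and in the authors' deposited table Elovl6 has a log2 fold change of -0.27 with an adjusted p of 0.43.

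The desaturases gave the lowest log2 fold changes of the 10. Scd1 and Scd2 encode stearoyl-CoA desaturases, which place the first double bond into stearate and palmitate, and the genes lie close together on chromosome 19, Scd1 from 44468940 to 44482199 (minus strand, 6 exon intervals) and Scd2 from 44368166 to 44381352 (plus strand, 6 exon intervals). Scd2 was the more abundant in WT, at 113, 113 and 111 CPM in replicates 1 to 3, and fell to 10.1, 8.86 and 10.9 CPM in SHP-KO. The change was log2 -3.50 (SE 0.072, adjusted p 4.3e-61, edgeR), the lowest of the 10, and rests on 4303 summed counts in WT and 255 in SHP-KO. Scd1 went from 21.3, 24.1 and 21.6 CPM to 6.36, 5.47 and 6.88 CPM, or log2 -1.84 (SE 0.12, adjusted p 1.7e-25, edgeR). Shared sequence was limited, since 2.66% of the 100-base stretches of Scd1 and 0.896% of those of Scd2 occur in transcripts of other genes. The related gene Scd3 had 0 counts in every library, and Scd4 had 5 summed counts in WT and 7 in SHP-KO.

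Mlxipl, which encodes ChREBP, rose, as did Acly and Me1 among its textbook targets, while Acaca, Fasn, Scd1 and Elovl6, also textbook targets, fell. It lies on chromosome 5 from 135582761 to 135614252 (mm9, plus strand) with 17 exon intervals. Its level was 93.2, 84.8 and 97.1 CPM in WT and 235, 238 and 225 CPM in SHP-KO replicates 1 to 3. The SHP-KO libraries were close to each other and all above WT, at log2 1.34 (SE 0.040, adjusted p 2.1e-47, edgeR). The count covers all exons of the gene, so transcripts from its different starts were not separated.

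**Figure D2:**
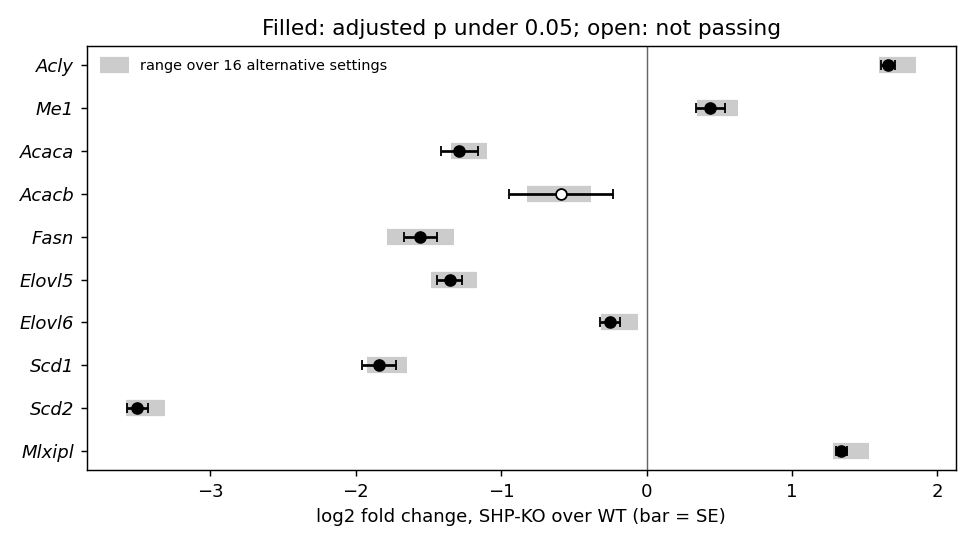
Log2 fold change of SHP-KO over WT for each of the 10 genes, with bars of 1 SE, filled where the adjusted p was under 0.05 and open for Acacb. Grey bands give the range over 16 alternative settings, and no band crosses 0, although the band of Elovl6 reaches -0.060.

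With the assumed CV of 0.2, 33.4% of all tested genes were called, 17.9% higher and 15.5% lower. Under that rule 7 of the 10 genes were called, Acly and Mlxipl higher and Acaca, Fasn, Elovl5, Scd1 and Scd2 lower. These same 7 genes were also the ones that changed by at least 2-fold.

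Per kilobase of exon the order of the levels differed between genotypes. In WT, Mlxipl was highest at 25.1 ± 1.73 CPM per kilobase (SD, n = 3), then Scd2 at 20.6 ± 0.25, Elovl5 at 13.5 ± 0.40, Acly at 10.1 ± 0.36, Elovl6 at 6.54 ± 0.14, Scd1 at 4.62 ± 0.32, Me1 at 4.06 ± 0.35, Fasn at 2.56 ± 0.093, Acaca at 1.74 ± 0.024 and Acacb at 0.18 ± 0.045. Only the neighbours Scd1 and Me1 overlapped between libraries in that order. In SHP-KO the order was Mlxipl at 63.7 ± 1.87 CPM per kilobase, Acly at 32.1 ± 2.20, Me1 at 5.54 ± 0.83, Elovl6 at 5.50 ± 0.25, Elovl5 at 5.26 ± 0.77, Scd2 at 1.82 ± 0.19, Scd1 at 1.29 ± 0.15, Fasn at 0.87 ± 0.27, Acaca at 0.72 ± 0.073 and Acacb at 0.11 ± 0.037. There the levels of Me1, Elovl6 and Elovl5 overlapped, as did those of Fasn and Acaca. Scd2 went from just below Mlxipl to below both elongases, while Mlxipl stayed at the top and Acacb at the bottom. The exon length used includes stretches shared with other loci, 42.8% of those of Acaca and 17.2% of those of Me1. Their levels may therefore be too low, and their places among their neighbours in both orders are uncertain. Ratios that involve Acaca carry the same limit.

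Ratios of genes within a library do not depend on the scaling between libraries. The Scd1 to Scd2 ratio of counts per kilobase was 0.21, 0.24 and 0.22 in the WT libraries, against 0.71, 0.70 and 0.71 for SHP-KO, so that the desaturase transcripts went from a predominance of Scd2 to levels closer to even. The ratio rose by log2 1.66 (exact permutation p = 0.10, adjusted p 0.15 over 3 ratios, two-sided). The Elovl5 to Elovl6 ratio was 1.95, 2.11 and 2.13 in WT and 0.83, 0.94 and 1.10 in SHP-KO, a log2 difference of -1.12 (exact permutation p = 0.10, adjusted p 0.15). For Acaca to Acacb the ratio was 11.9, 7.56 and 11.7 in WT and 10.3, 6.37 and 4.27 in SHP-KO, and the groups overlapped (exact permutation p = 0.20, adjusted p 0.20). With 3 libraries a group the smallest p that this test can give is 0.10, so none could pass.

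Further ratios, chosen after the values were seen and not tested, set the first step of the pathway against later ones. Acly to Fasn was 4.10, 3.82 and 3.94 in WT and 37.2, 51.3 and 28.6 in SHP-KO. Acly to Acaca was 5.80 ± 0.13 in WT and 45.0 ± 4.97 in SHP-KO (SD, n = 3), and Mlxipl to Fasn 9.83 ± 0.64 and 78.9 ± 29.4. In each of these the lowest SHP-KO library was above the highest WT library.

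**Figure D3:**
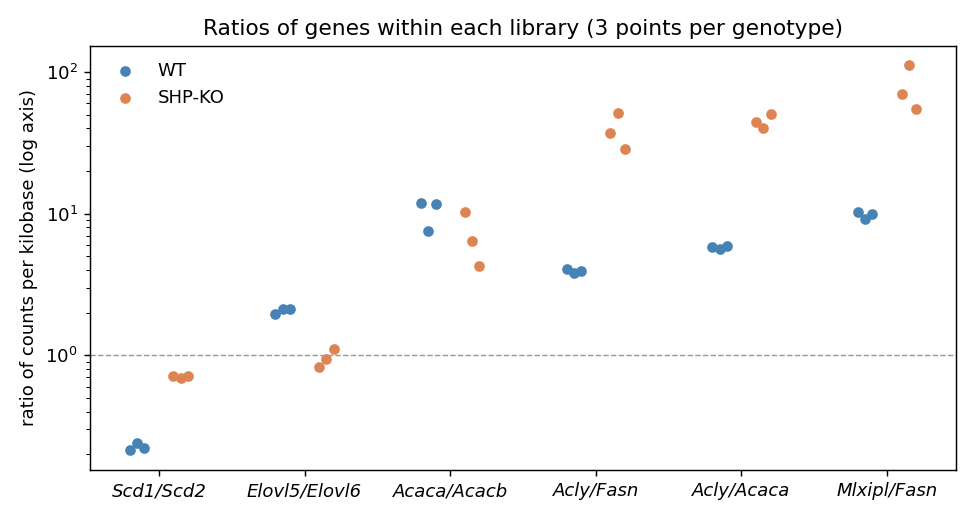
Ratios of counts per kilobase (log axis) for pairs of genes within each library, 3 points per genotype, with a dashed line at equal levels. Scd1 to Scd2 lies between 0.21 and 0.24 in WT and between 0.70 and 0.71 in SHP-KO, and Acly to Fasn rises from about 3.95 to 39.0 on average.

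The lists of related genes below are read beside the 70.6% of all tested genes that were called, a share near which several of them lie, and beside their counts under epithelial scaling and with the assumed CV. Regulators of the pathway moved in both directions. Srebf1, which encodes SREBP-1, had a mean of 58.5 ± 2.172 CPM in WT against 57.2 ± 3.50 for SHP-KO (SD, n = 3), which did not pass (log2 -0.033, SE 0.058, adjusted p 0.62, edgeR), with the opposite sign and a call under epithelial scaling (log2 0.16, adjusted p 0.015). Scap, its escort to the Golgi, rose by log2 1.33 (SE 0.064). Insig1, a retention protein named after its values were seen, rose by log2 1.32 (SE 0.24, adjusted p 0.0075, edgeR). Nr1h3, the oxysterol receptor LXR-alpha, rose by log2 0.49 (SE 0.046), but missed the threshold once a CV of 0.2 was assumed (adjusted p 0.099 by the exact test in edgeR). Mlx, the DNA-binding partner of ChREBP, averaged 219 ± 4.13 CPM in WT against 192 ± 1.93 for SHP-KO, a log2 fold change of -0.19 that was 0.0032 with epithelial scaling and did not pass there or with the assumed CV (adjusted p 0.94 and 0.59). Mid1ip1, which promotes the polymerisation of acetyl-CoA carboxylase, fell by 0.89 on the log2 scale. Thrsp, its lipogenic relative, was too low to test, with 7 summed counts in WT and 17 for SHP-KO. Of 13 tested genes in that list 6 rose, 3 fell and 4 did not pass (median log2 fold change 0.17). Epithelial scaling gave 10 higher and 2 lower, and the assumed CV 2 and 2. In the list of kinases and other genes that act on acetyl-CoA carboxylase or malonyl-CoA, 3 of 11 rose, 3 fell and 5 did not pass (median 0.0065), with Stk11 at log2 0.34 and Prkaa1, a catalytic AMPK subunit, at -0.47, both not passing with the assumed CV. Here epithelial scaling gave 5 higher and 2 lower, and the assumed CV 1 and 0.

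Genes that supply acetyl-CoA and NADPH were called in both directions. Slc25a1, the mitochondrial citrate carrier, averaged 197 ± 2.09 CPM in WT against 195 ± 3.85 for SHP-KO (log2 -0.017, adjusted p 0.67, edgeR), and was called higher with epithelial scaling (log2 0.17). Acss2, which makes acetyl-CoA from acetate, was at 23.4, 26.1 and 24.2 CPM in WT and 91.2, 47.7 and 46.3 CPM in SHP-KO. SHP-KO replicate 1 stood apart, and the rise of log2 1.32 (SE 0.35) passed at an adjusted p of 0.026 in edgeR. Leaving out WT replicate 1, 2 or 3 ended that call (adjusted p 0.084, 0.072 and 0.081). Me3, a mitochondrial malic enzyme, fell by 2.59 on the log2 scale, from 11.8 ± 1.09 to 2.00 ± 1.13 CPM. Of 17 genes in that list 4 rose, 8 fell and 5 did not pass (median -0.017). The balance turned with epithelial scaling, to 10 higher and 7 lower (median 0.17), and the assumed CV left 1 higher and 3 lower.

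Sugar-handling genes, several of them known ChREBP targets, were likewise mixed. Slc2a2, the basolateral sugar transporter GLUT2, rose by log2 1.03 and Khk, which starts fructose breakdown, by log2 0.33. Pklr, the pyruvate kinase gene, fell by 0.38 on the log2 scale, and the calls of Khk and Pklr did not hold when the CV was assumed (adjusted p 0.30 and 0.23 by the exact test in edgeR). Txnip, a glucose-induced inhibitor of thioredoxin, fell by 1.37 on the log2 scale. In this list 4 of 12 tested genes rose, 6 fell and 2 did not pass (median log2 fold change -0.19). Epithelial scaling gave 6 and 6 (median 0.0011), and the assumed CV 1 higher and 4 lower.

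Other genes of elongation and desaturation also moved in both directions. Fads2, the delta-6 desaturase gene that feeds Elovl5, was at 13.8, 14.8 and 15.5 CPM in WT and at 2.16, 1.64 and 1.15 CPM in SHP-KO. It fell by 3.16 on the log2 scale (SE 0.18, adjusted p 1.8e-28, edgeR), whereas Fads1, the delta-5 desaturase gene, rose by log2 0.86 (SE 0.19) from 3.32 ± 0.54 CPM. Of 13 tested genes 4 rose, 7 fell and 2 did not pass (median -0.32), against 5 and 5 under epithelial scaling and 2 and 3 with the assumed CV. The separate mitochondrial pathway of fatty acid synthesis gave 2 higher, 3 lower and 1 not passing of 6 (median -0.24), with Acsf3 at log2 0.76 and Cbr4 at -0.70. That became 2 and 2 under epithelial scaling and 1 and 1 with the assumed CV. Genes that activate, esterify or oxidise fatty acids gave 5 higher, 6 lower and 3 not passing of 14 (median -0.032), with Dgat1, a final enzyme of triglyceride synthesis, at log2 0.90 and Acsl4, an acyl-CoA synthetase, at -1.004. Epithelial scaling gave 6 higher and 5 lower (median 0.16), and the assumed CV 2 and 4.

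**Figure D4:**
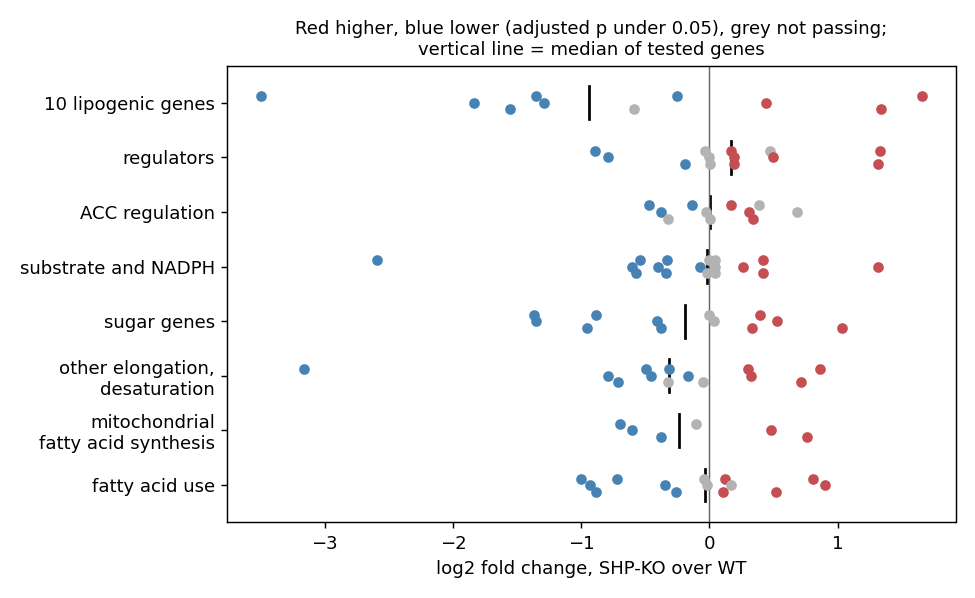
Log2 fold change of every tested gene in the 10 lipogenic genes and in 7 lists of related genes, red for called higher, blue for called lower and grey for not passing, with a vertical line at each median. The 10 lipogenic genes spread from -3.50 to 1.66, and each list holds genes on both sides of 0.

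The genes with the profile nearest to Mlxipl over the 6 libraries, among 7428 genes of at least 10 CPM and each centred on its WT mean, were Pan2, Sfrs18 and Naip5. Their root mean square differences were 0.039, 0.047 and 0.051 log2 units. Naip5 belongs to a family of close copies, so its count is uncertain. For Scd2 the nearest were Mt1, Gp2 and Sgk1, at 0.23, 0.24 and 0.28 log2 units. With 2 groups of libraries, this distance measures how alike the differences between groups and the scatter within them are.

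Markers of other cells and of gut segments moved in the same libraries. The labelled tissue was checked against 13 epithelial markers, all of them tested, with summed levels of 26362 to 26505 CPM in WT and 25510 to 25573 in SHP-KO. Of these 4 were higher, 8 lower and 1 did not pass, which became 7 higher and 6 lower once scaled to these same genes and 0 higher and 2 lower with the assumed CV. Krt20 was at log2 0.17 and Krt8 at -0.12 (0.075 with epithelial scaling), and neither passed when the CV was assumed. Adipocytes are rich in lipogenic enzymes, and 8 of 8 tested adipocyte markers were higher (median log2 1.96) while 6 of 14 were too low to test. The summed adipocyte markers were at 249.4 to 269.7 CPM in WT and 387 to 407 in SHP-KO, most of it from Lipe and Cidec at log2 0.75 and 0.25, the second of which did not pass when the CV was assumed. Car3, Cfd, Fabp4 and Plin4 rose more, by log2 4.69, 3.33, 2.92 and 2.77, from low WT means of 0.20, 0.26, 1.86 and 0.67 CPM. Adipoq, which defines fat cells, had 4 summed counts in WT and 18 for SHP-KO, and Lep had 0 and 4. All 10 B cell markers were lower, from a sum of 90.3 to 98.1 CPM in WT to 1.49 to 2.55 in SHP-KO, with Cd79a and Cd79b at log2 -5.30 and -5.27 and Cr2, Fcer2a and Faim3 at 0 counts in SHP-KO. All 11 tested smooth muscle markers were higher, from 264 to 276 CPM in sum to 1241 to 1285, with Acta2 and Flna at log2 3.02 and 2.42.

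Of 9 tested proximal markers 8 were higher and 1 lower (sums of 5116 to 5209 and 27161 to 27659 CPM), with Apoa4 and Rbp2 at log2 2.42 and 1.93 and with Cyp8b1 at 0 counts in WT. The lower one was Slc40a1, at log2 -3.45. Of 10 ileum markers 3 were higher and 7 lower (sums of 17668 to 18048 and 3275 to 3348 CPM), with Fabp6 and Tmigd1 at log2 -6.22 and -2.50. Most of the WT sum came from Fabp6, at a mean of 10792 CPM in WT and 144.5 in SHP-KO. The 3 that rose were Slc10a2 (means of 303 CPM in WT and 666 in SHP-KO), Enpp3 (5.50 and 135 CPM) and Pyy. The ileum markers thus did not fall as a block. Of 5 tested brain and nerve markers 4 were higher and 1 lower (sums of 52.7 to 53.9 and 87.8 to 90.0 CPM), with Mbp and Ret at log2 0.59 and -0.34. Mbp made up most of the sums, at a mean of 39.1 CPM in WT and 59.1 in SHP-KO. The less abundant Tubb3, Elavl4 and Prph rose more, by log2 2.87, 2.19 and 2.05. Ret missed the threshold in 5 of 16 alternatives, among them those without WT replicate 2 (adjusted p 0.18) and without SHP-KO replicate 2 (adjusted p 0.087). Among 3 tested hepatocyte markers 2 were lower and 1 did not pass (sums of 57.3 to 60.3 and 18.8 to 20.1 CPM), with Cps1 and Ttr at log2 -1.73 and -1.76, Alb at 0 counts in WT and Fgb at 0 counts in both genotypes. Most of these sums came from Cps1 alone, at a mean of 55.1 CPM in WT and 16.6 in SHP-KO. The fall of the sum therefore follows 1 gene and does not show hepatocyte material in WT. The part of these cell types and segments in the changes of the lipogenic genes was not tested.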

How the data were processed

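RNA of 6 libraries was sequenced as 100-base reads. The submitters' processing notes name Trimmomatic 0.38, STAR 2.6.0c and the build mm9. The deposited values are whole-number read counts per gene from featureCounts 1.5.2, summed over exons without regard to strand, per the file headers, so reads of overlapping antisense genes cannot be told apart. A table deposited by the authors gives log2 fold changes, log2 mean CPM and raw and adjusted p-values, used here for Me1 and Elovl6 only.

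Counts passing edgeR's filterByExpr (minimum count 10) were tested with edgeR 4.0.16 (TMM, robust quasi-likelihood fit) in R 4.3.3, over all genes. All 10 lipogenic genes passed the filter. Standard errors were derived from that fit. Alternatives used DESeq2 1.42.0, limma 3.58.1 (voom), other scalings and filters, an edgeR exact test with an assumed CV, a block by replicate number and leaving out each library. The members and lists (7 of related genes, 8 of markers) were chosen with earlier results of these data known. Hsd17b8 is a list gene without a row under that name. Named list genes were a fixed set, the largest rise and fall per list at a mean of at least 1 CPM, and the 2 most abundant genes per marker list with any at 0 counts in a group, and the 3 genes of nearest profile to Mlxipl and to Scd2. Some genes that this rule names are not reported here. Insig1, Prkaa2, Adipoq, Scd3, Scd4 and Gm5182 were named after their values were seen. So were the markers Slc40a1, Enpp3, Slc10a2, Pyy, Tubb3, Elavl4, Prph, Car3, Cfd, Fabp4 and Plin4. Levels between genes were compared per kilobase of exon. Shared 100-base stretches were found in GENCODE M21 transcripts (GRCm38), promoter windows come from RefSeq (GRCm38.p6), and gene coordinates are those of the count files (mm9). Figures were drawn with matplotlib 3.10.9.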

Additional observations from a re-analysis of the deposited data

How the results depend on the processing

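In 16 alternative settings the 10 lipogenic genes kept the sign of their log2 fold change, and the calls of Acly, Acaca, Fasn, Elovl5, Scd1, Scd2 and Mlxipl held in all of them. With the assumed CV of 0.2, 2164 genes were called higher and 1877 lower, and Me1 and Elovl6 were lost. Epithelial scaling reversed Srebf1 (log2 0.16), Mlx (0.0032), Slc25a1 (0.17) and Krt8 (0.075). With 1 library left out, Srebf1 ran from -0.065 to 0.015, positive only without SHP-KO replicate 2, and Prkaa2 from -0.95, negative only without SHP-KO replicate 3, to 1.12. The cause was not tested.

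Equal replicate numbers in the labels did not pair the libraries (correlations of deviations 0.018, 0.021 and -0.0064). With the replicate block 4266 genes were called higher and 4307 lower, 3 and 6 of the lipogenic genes among them, and Acss2 lost its call (adjusted p 0.074). The block left the ratio differences at 1.66, -1.12 and -0.63, with an exact p of 0.25 each, the smallest it can give. Without any 1 library the Acaca to Acacb difference ran from -0.96 to -0.33. Of 120 counts in lists under other scalings or the assumed CV, 100 stayed within 1.5 times and 20 did not. Under epithelial scaling those were the genes called higher among regulators (6 to 10), carboxylase regulation (3 to 5), substrate and NADPH (4 to 10) and epithelial markers (4 to 7), and the nerve marker called lower (1 to 0). The other 15 moved with the assumed CV, all to fewer calls. Acacb rests on few reads, 56 and 25 summed counts.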

Other observations

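Prkaa2, which encodes a catalytic subunit of AMPK, the kinase that inhibits acetyl-CoA carboxylase, was at 31.1, 30.8 and 30.3 CPM in WT replicates 1 to 3 and at 16.3, 15.5 and 115 CPM in SHP-KO replicates 1 to 3. SHP-KO replicates 1 and 2 were below and replicate 3 above all WT libraries. The log2 fold change was 0.68 (SE 0.93, adjusted p 0.55, edgeR), and without SHP-KO replicate 3 it was -0.95 (adjusted p 4.7e-13). It was also called, as higher, without robust estimation (adjusted p 0.045) and with the assumed CV of 0.2 (adjusted p 0.021).

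Insig1, which holds SREBP precursors in the endoplasmic reticulum, was at 80.9, 80.7 and 83.3 CPM in WT and at 222, 246 and 143 CPM in SHP-KO replicates 1 to 3. The WT libraries were close to each other, and the SHP-KO libraries were further apart, with replicate 3 lowest.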
